A study of Caenorhabditis elegans with 12 samples.

Results

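Ageing of wild-type Caenorhabditis elegans was followed from day 1 to day 9 of adulthood across all genes. The 6 libraries compared were 3 of wild-type animals at day 9 and 3 of wild-type animals at day 1, out of 12 in the series. They were chosen by their labels alone. The other 6 libraries were from animals carrying daf-2(e1370) at the same ages. They shared in the filter on low counts, the scaling of totals and the estimate of spread, and so bear on every adjusted p.

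Wild type here is N2, the standard laboratory strain, which is mostly self-fertile hermaphrodites. Both ages shared the same handling: growth on nematode plates seeded with OP50 bacteria and exposure to 50 µM FUdR, an inhibitor of DNA synthesis that blocks progeny, started at the last larval stage or in young adults. RNA came from whole bodies of pooled animals in separate biological repeats. A level is therefore a sum over all tissues, and fewer cells of a type cannot be told apart from less RNA per cell. Because every animal received FUdR, no value speaks of ageing without it.

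A day 1 hermaphrodite is at the height of reproduction. Its intestine makes yolk proteins for the oocytes, its gonad loads eggs with maternal RNA, and its epidermis completes the adult cuticle. By day 9 self-fertile reproduction is over, muscle and gut deteriorate, and bacteria that serve as food accumulate in the gut lumen. Several innate defence programmes operate in worms, among them secreted lysozymes and lectins and a separate response to intracellular pathogens.

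The files listed 46778 genes, of which 25558 had no read in any of the 6 wild-type libraries. After a filter on low counts 15523 genes were tested. The 3 day 9 libraries held 21666006, 22992573 and 21665059 counts, against 21406233, 20322128 and 32116409 in the day 1 libraries. Levels are in CPM, the counts-per-million of a library's total, with totals scaled by the trimmed mean of M-values (TMM), except where TPM is named (transcripts-per-million, counts per kilobase of exon scaled to the same total over protein-coding genes in each library). Only TPM was used to compare one gene with another. Every adjusted p below comes from the quasi-likelihood test of edgeR, adjusted by Benjamini and Hochberg over the 15523 genes, and genes were called where it was under 0.05. Changes are log2 of day 9 over day 1, ± SE. Coordinates are on WBcel235.

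Single libraries stood apart for some tissues. Day 9 replicate 3 was low in sperm genes: the sperm protein phosphatase gene gsp-3 was at 13.3, 12 and 3.69 CPM in the day 9 libraries, against 1.77, 2.64 and 2.60 CPM in the day 1 libraries. Day 1 replicate 1 was high in genes of a forming cuticle: the collagen gene sqt-3 was at 1.93, 3.37 and 3.44 CPM at day 9, against 35.9, 4.56 and 4.68 CPM at day 1. Day 1 replicate 2 was low in some embryonic and F-box genes. One was ceh-51, an embryonic homeobox gene, at 0.534, 0.383 and 0.461 CPM at day 9 against 2.4, 0.72 and 1.47 CPM at day 1. Markers of all tissues checked were present at both ages. Summed over 8 body wall muscle markers the level was 825.2 to 914.9 CPM at day 9 and 2588 to 4128 CPM at day 1. Over 8 neuron markers it was 272.7 to 306.4 CPM at day 9 and 200.4 to 213.2 CPM at day 1. Most of that sum was snb-1, at 206.5, 239.1 and 233.5 CPM at day 9 against 141.3, 155.5 and 164.3 CPM at day 1. Of the 8 neuron markers 3 were called higher and 0 lower.

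Of the genes tested, 4848 were higher at day 9 (31.2%) and 3970 were lower (25.6%). Among genes that rose, 3378 changed at least 2-fold, 1649 at least 4-fold and 195 at least 16-fold. Among genes that fell, 1344 changed at least 2-fold and 487 at least 4-fold. No read at day 1 was found for 31 of the genes that rose at least 4-fold, and no read at day 9 for 9 of those that fell, so their fitted size has no firm upper end. Single libraries of the 2 ages did not overlap for 4691 of the genes that rose and 3827 of those that fell. The median change of all genes tested was 0.09, with quartiles of -0.46 and 0.96. The split depended on scaling: upper-quartile scaling raised every change by about 0.17 and gave 5849 higher and 2967 lower, so that 66.3% of called genes were higher, against 55% under TMM. Changes under about 0.2 should be read with that shift in mind.

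**Figure D1:**
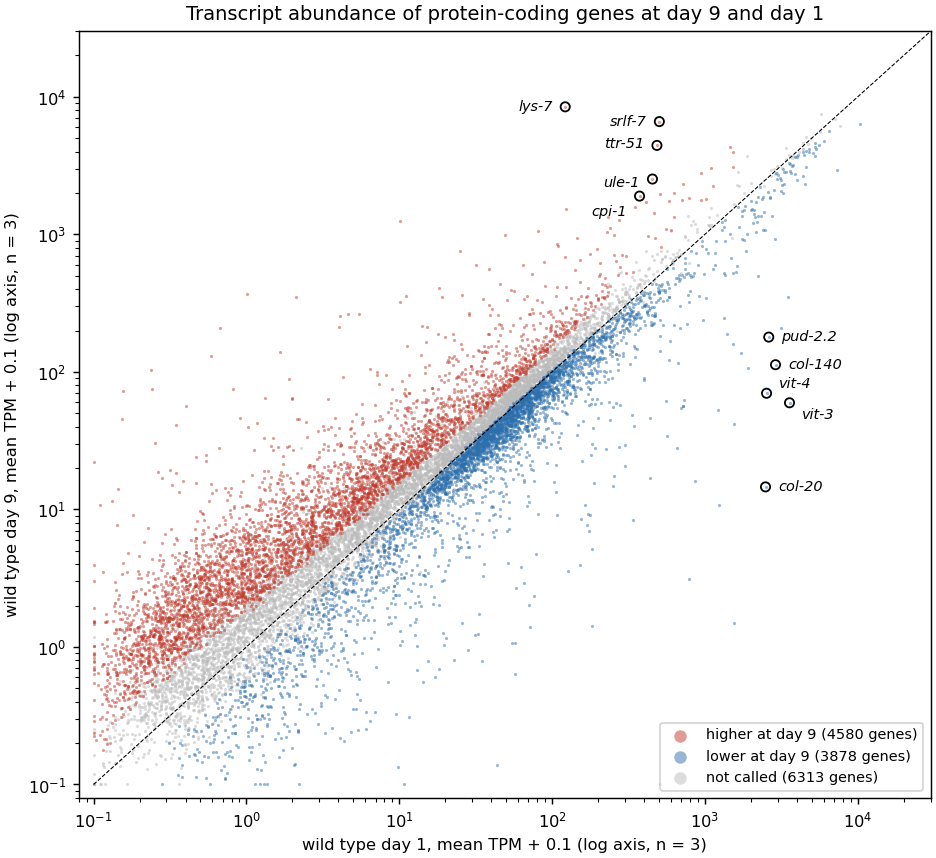
Mean TPM of each protein-coding gene tested at day 9 (vertical) and day 1 (horizontal), both with 0.1 added and on log axes; each point is a gene, coloured by its call, and the dashed line marks equal TPM. Circled genes entered or left the 100 most abundant from or to the lowest ranks: lys-7 stood at 8463 TPM at day 9 and 122 TPM at day 1, and col-20 at 14.5 TPM at day 9 and 2495 TPM at day 1. Calls rest on TMM-scaled counts, so their boundary does not follow the dashed line.

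The most abundant transcripts changed place. By TPM, the 10 leading genes at day 9 were lys-7, rla-0, vit-5, srlf-7, eef-1A.1, vit-2, rps-23, rpl-10, far-2 and rpl-7. At day 1 they were eef-1A.1, vit-2, vit-6, vit-5, rps-23, rps-8, rla-0, rpl-10, rps-25 and rps-24. The rps, rpl and rla genes encode ribosomal proteins, eef-1A.1 a translation elongation factor, the vit genes yolk proteins, and far-2 a fatty acid and retinol binding protein. Both lists held 6 of these genes.

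The lysozyme gene lys-7 (V, 3481432 to 3482600) held the first rank at day 9 and rank 1197 at day 1. It was at 7651, 9403 and 8336 TPM in the day 9 libraries, against 121, 80.4 and 164 TPM in the day 1 libraries. Every day 9 library was far above every day 1 library. Its TMM-scaled change was 5.83 ± 0.27 (adjusted p = 3.63e-08).

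The srlf-7 gene (IV, 7189287 to 7190333) took rank 4 at day 9 and rank 269 at day 1. Its libraries read 6442, 6537 and 6856 TPM at day 9, against 473, 391 and 647 TPM at day 1, with no overlap and a change of 3.42 ± 0.33 (adjusted p = 7.19e-06). The gene ttr-51 (IV, 13250655 to 13252311) belongs to a nematode family related to transthyretin. It was at 3919, 5172 and 4215 TPM at day 9, against 394, 496 and 567 TPM at day 1. That moved it to rank 16 at day 9 from rank 277, with a change of 2.89 ± 0.26 (adjusted p = 4.22e-06).

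Further genes came into the top 100 from far below. The gene ule-1 (I, 2219468 to 2222313), named for its expression in the uterine lumen, reached 2216, 2967 and 2397 TPM at day 9, against 315, 539 and 508 TPM at day 1. The cystatin gene cpi-1 (IV, 6092603 to 6093680), an inhibitor of cysteine proteases, reached 1684, 2352 and 1660 TPM at day 9, against 378, 368 and 375 TPM at day 1. Neither gene's libraries overlapped between ages, and the changes were 2.16 ± 0.37 and 2.05 ± 0.34 (adjusted p = 0.000403 and 0.000358).

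The genes that dropped furthest out of the top 100 were col-20, vit-3, vit-4, col-140 and the pud-2.2 identifier WBGene00017490. That identifier, taken up again below, held rank 853 at day 9 and rank 75 at day 1. The collagen gene col-20 held rank 6904 at day 9 and rank 78 at day 1. It was at 13.4, 15.6 and 14.4 TPM at day 9, against 3229, 1960 and 2295 TPM at day 1. Another collagen gene, col-140, averaged 113 TPM at day 9 and 2900 TPM at day 1, a change of -4.98 ± 0.43 (adjusted p = 3.14e-06).

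The yolk genes went separate ways. The gene vit-6 was at 2977, 2415 and 3392 TPM at day 9, against 8810, 5992 and 7076 TPM at day 1, which took it to rank 53 from rank 3 (change -1.61 ± 0.33, adjusted p = 0.00133). By contrast vit-5 read 6507, 6652 and 7604 TPM at day 9, against 7888, 6856 and 6727 TPM at day 1, and its overlapping libraries gave no call (-0.35 ± 0.30, adjusted p = 0.332). The near-identical genes vit-3 and vit-4 averaged 59.6 and 69.9 TPM at day 9, against 3580 and 2533 TPM at day 1. The sources used here do not say how their reads were divided with vit-5, so these 3 values are uncertain one by one.

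In all, 76 genes were in the top 100 at both ages. Ribosomal protein genes held 60 of the 100 places at day 9 and 67 at day 1, collagens none at day 9 and 5 at day 1, and transthyretin-like genes 3 at day 9 and none at day 1. Each library's own 100 leading genes took 33.0%, 34.2% and 32.8% of its TPM at day 9, against 35.5%, 38.3% and 35.7% at day 1. Every day 9 share was below every day 1 share (two-sided exact permutation p = 0.1, and 3 libraries against 3 cannot go lower). The leading 1000 genes took 66.2 ± 0.707% at day 9 and 70.4 ± 1.41% at day 1 (SD, n = 3), also with no overlap (exact permutation p = 0.1).

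Space in the transcript pool moved between families. Transthyretin-like genes took 1.36%, 1.71% and 1.42% of TPM at day 9, against 0.497%, 0.495% and 0.517% at day 1. Lysozymes (lys) took 1.00% on average at day 9 and 0.196% at day 1, and srlf genes 0.775% at day 9 and 0.141% at day 1. Both gains lay largely in a single gene. The mean of lys-7 was 8463 TPM at day 9 and 122 TPM at day 1, a gain no smaller than its family's. For srlf-7 the means were 6612 TPM at day 9 and 504 TPM at day 1, which made up most of the srlf gain. The 5 ule genes took 1.18% on average at day 9 and 0.426% at day 1, and the 5 perm genes, which include builders of the eggshell's permeability barrier, 0.767% at day 9 and 0.330% at day 1. Collagens gave up the most, with 0.548%, 0.551% and 0.581% at day 9, against 4.23%, 2.77% and 3.26% at day 1. Small-subunit ribosomal proteins (rps) took 9.51% at day 9 and 11.3% at day 1, and large-subunit ones (rpl) 11.9% at day 9 and 13.6% at day 1. None of these families' libraries overlapped between the ages. The families named are among those with the largest differences, and were picked for it, so these shares are a description.

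Direction followed abundance. When protein-coding genes were split into quintiles by mean TPM over the 6 libraries, 36.9% of the least abundant quintile rose and 9.85% fell. In the second quintile, of 1.33 to 5.32 TPM, 45.6% rose and 12.1% fell. In the most abundant quintile, above 57.6 TPM, 17.1% rose and 44.6% fell. The order held under upper-quartile scaling, with 51.8% higher and 9.34% lower in the second quintile and 25.8% higher and 33.5% lower in the most abundant. Large changes were less lopsided at the top: in the most abundant quintile, 2.47% of genes rose at least 4-fold and 2.81% fell at least 4-fold, while in the least abundant quintile the shares were 21.9% and 4.64%. The filter ran over all 12 libraries, and a gene low on average can pass it on 1 group alone. The lowest mean TPM in the least abundant quintile was 0, so passing there could rest on daf-2 libraries. The part of the filter in the shares of the low quintiles was not tested. More genes were detected at day 9: 8771 protein-coding genes passed 5 CPM in all 3 day 9 libraries, against 8163 in the day 1 libraries.

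**Figure D2:**
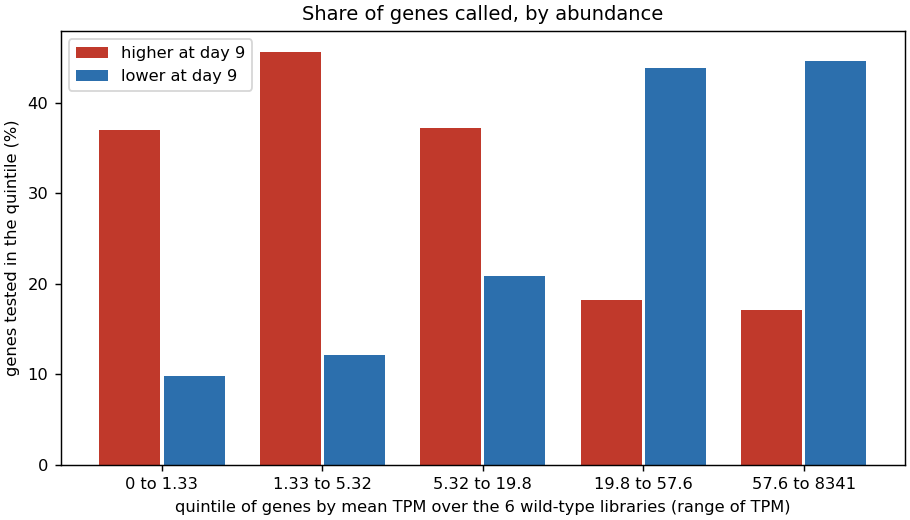
Share of protein-coding genes tested in each quintile of mean TPM that were called higher (red) or lower (blue) at day 9, in percent; quintiles run from the least to the most abundant and are labelled with their range of TPM. Genes higher at day 9 outnumber those lower in the first 3 quintiles, with 45.6% against 12.1% in the second, and the order turns in the last 2, with 17.1% against 44.6% in the most abundant.

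Genes were counted as switched on if they were under 0.5 CPM in every day 1 library and over 5 CPM in every day 9 library, and as switched off in the reverse case. By that measure 23 genes were switched on and 11 were switched off. Because the levels themselves chose these genes, no test is given for them as groups. The nearest gene inside the limit for switching on was idpa-3, whose lowest day 9 library was at 5.06 CPM, and the nearest outside was F07B7.8 at 4.68 CPM. For switching off, clec-53 lay just inside with a lowest day 1 library of 5.09 CPM, and H25K10.1 just outside at 4.79 CPM.

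Among the genes switched on was a collagen gene, although more collagen genes fell than rose (61 against 10 of 107 tested). It was col-183 (X, 13466643 to 13467764), at 73.6, 100.8 and 68.1 CPM in the day 9 libraries, against 0.156, 0.180 and 0.0684 CPM in the day 1 libraries. That is 1793, 2632 and 1625 reads at day 9, against 3, 3 and 2 at day 1. Other collagen genes with nearby numbers, col-181 and col-184, chosen after their values were seen, were lower at day 9, col-184 at 376 to 407 CPM against 1217 to 1468 CPM at day 1. The uncharacterised gene C18D11.6 (III, 11810556 to 11811045) was at 51.1, 60.0 and 55.1 CPM at day 9 against 0.260, 0.120 and 0.171 CPM at day 1.

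Lysozymes and some other genes of known antibacterial families were among the rest. Both ilys-2 and ilys-3, neighbouring genes for invertebrate-type lysozymes, were switched on, with ilys-2 (IV, 2467678 to 2468879) at 7.47, 11.3 and 7.79 CPM at day 9 against 0.417, 0.120 and 0.0342 CPM at day 1. Their relative ilys-5, chosen after its values were seen, was at 162, 265 and 108 CPM at day 9 against 397, 401 and 414 CPM at day 1. The saposin-like gene spp-9, of a family with pore-forming antibacterial members, had 659, 648 and 184 reads at day 9, against 0, 1 and 0 at day 1. Its reads were fewest in day 9 replicate 3. The C-type lectin gene clec-60 was at 9.65, 10.1 and 12.6 CPM at day 9, against 1 read in all at day 1. The genes fipr-24 and fipr-26 belong to a family named for peptides induced by fungal infection, and fipr-24 was at 13.5, 14.7 and 14.5 CPM at day 9, against 0.260, 0.240 and 0.410 CPM at day 1.

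Membrane proteins were switched on as well. The gene pitr-4 (V, 9658862 to 9661614), of a phosphate transporter family, was at 16, 15.6 and 20.3 CPM at day 9, against 0.104, 0.0600 and 0.0342 CPM at day 1, while its relative pitr-1, chosen after its values were seen, was at 220 to 235.4 CPM at day 9 and 253 to 331 CPM at day 1. The acid-sensitive sodium channel gene acd-1 (I, 4103698 to 4108167), which acts in glia of the amphid sense organ, was at 9.82, 10.2 and 13.2 CPM at day 9, against 0.312, 0.480 and 0.479 CPM at day 1. The remaining genes switched on were cnc-6, dct-7, fbxa-165, idpa-3, a pseudogene, and 8 genes known by their sequence names, T23E7.6 and Y51B9A.8 among them.

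The genes switched off were fewer, and a copy problem was seen for at least 1 of them. Gene symbol pud-2.2 belongs to 2 gene identifiers in a cluster on chromosome V, and one of them, WBGene00017500, had no read in any day 9 library against 4614, 4594 and 3765 reads at day 1. The other, WBGene00017490, still had 47.1, 56.6 and 78.1 CPM at day 9. In all 3 daf-2 day 9 libraries the counts of both identifiers were equal, so how reads were divided between the copies may set the 0. Summed over both, pud-2.2 was at 47.1, 56.6 and 78.1 CPM at day 9, against 1441, 1572 and 922 CPM at day 1, lower by a factor of 21.7. By its sum, pud-2.2 fell without being switched off.

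The collagen genes col-92, col-135 and col-10 were switched off. The first, col-92 (III, 10982139 to 10983253), had 2, 0 and 0 reads at day 9, against 888, 671 and 876 at day 1, and it lies beside the similar genes col-93 and col-94. The intestinal intermediate filament gene ifc-1 (V, 2881393 to 2883753) was at 0.329, 0.268 and 0.168 CPM at day 9, against 22.3, 19 and 10.6 CPM at day 1. F45D11.14 (II, 1004616 to 1006475), for which no function can be given here, had no read at day 9, against 271, 261 and 402 reads at day 1. Set against the 3 reads over the group that a count of 0 allows, it was at least 359-fold lower. The lectin gene clec-53 was at 0.164, 0.153 and 0.0838 CPM at day 9, against 5.36, 5.94 and 5.09 CPM at day 1. K10C2.8, C17H12.6, F10A3.4 and T28D6.3 complete the list.

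**Figure D3:**
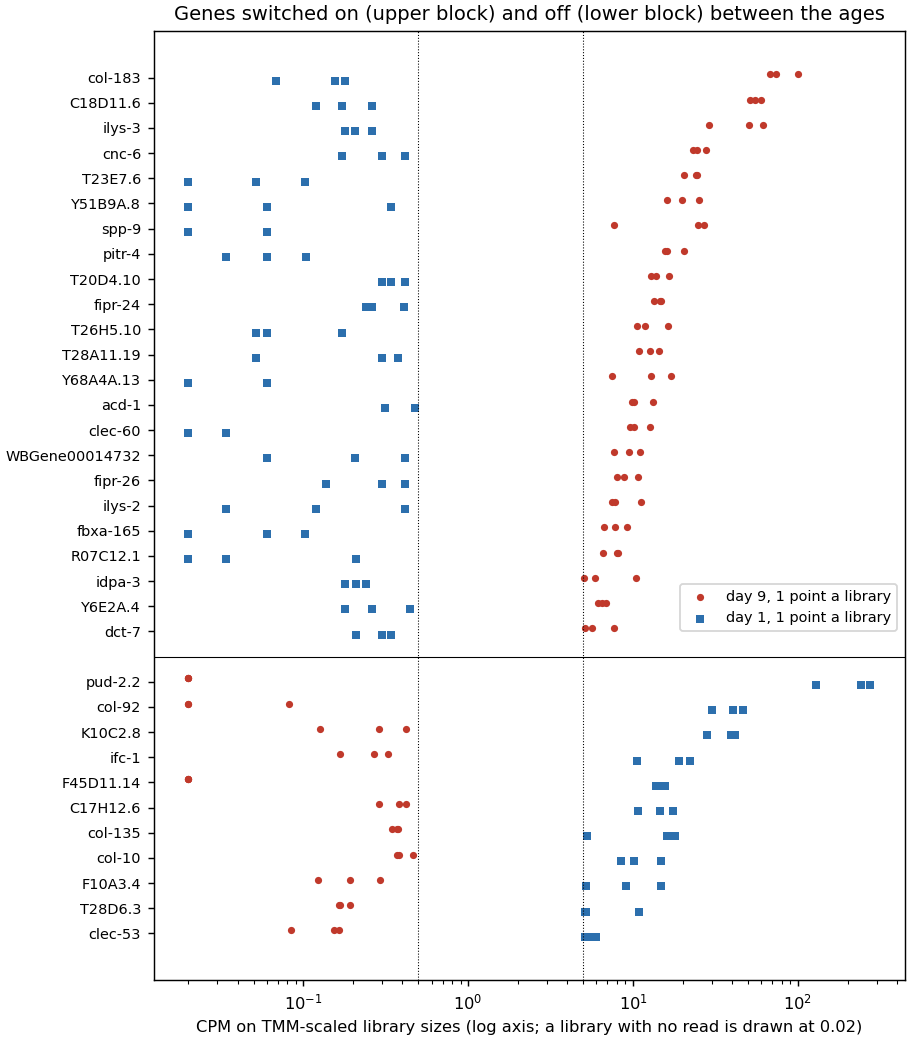
Level of the 23 genes switched on (above the line) and the 11 switched off (below it) in each of the 3 day 9 libraries (red circles) and 3 day 1 libraries (blue squares), in CPM on a log axis, with a library without reads drawn at 0.02. Dotted lines mark the limits of 0.5 and 5 CPM; genes run down each group by mean CPM, from col-183 at 68.1 to 100.8 CPM at day 9 and from the pud-2.2 identifier WBGene00017500 at 128.7 to 275.5 CPM at day 1.

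Gene classes, taken from the letters of the symbol, showed which families moved together. There were 143 classes with at least 10 members tested, holding 3609 genes. No member was lower in 11 of the classes and no member was higher in 14. Against the 31.2% of all genes that rose, the largest shares that rose were in spe, pals, srlf, irld, gpa, glb, pho, pgp, ttr, spp, tbc, ptr, acr, chil and fbxa. Against the 25.6% of all genes that fell, the largest shares that fell were in eif, vha, mrpl, mrps, cox, rbm, rpn, prp, rps, ints, alh, npp, him, fbxb and rpl.

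**Figure D4:**
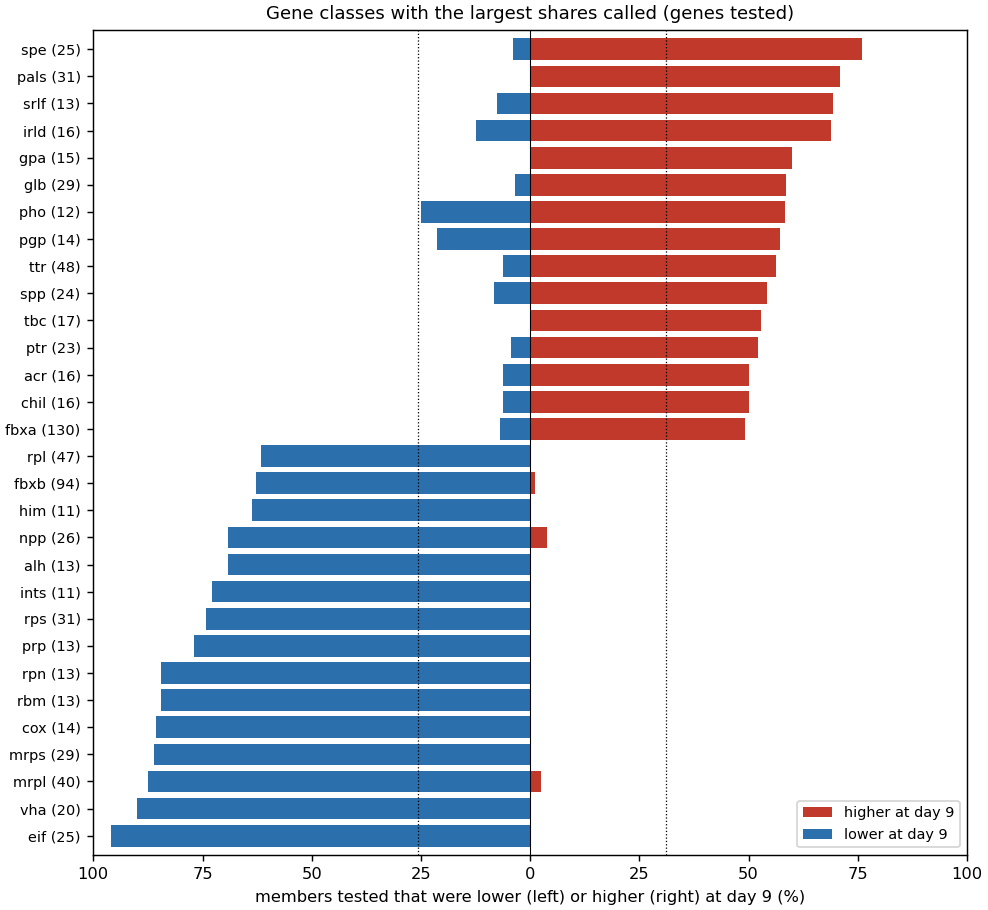
Share of the members tested that were higher (red, right) or lower (blue, left) at day 9 in the 15 gene classes with the largest share higher and the 15 with the largest share lower, in percent, with the number tested in brackets; dotted lines mark 31.2% and 25.6%, the shares of all genes tested. The spe class reaches 76% higher and the eif class 96% lower.

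The pals genes, several of which are part of or control the worm's response to microsporidia and virus, had 22 of 31 members tested higher and none lower, with a median change of 2.19. Another 7 of the 38 in the files did not pass the filter. The gene pals-26 (III, 4375154 to 4378907) was at 7.39, 10.1 and 9.64 CPM at day 9, against 0.573, 0.420 and 0.649 CPM at day 1, a change of 4.0 ± 0.21 (adjusted p = 1.19e-07). Its libraries were wide apart. The genes pals-33 and pals-39 rose by 3.15 ± 0.37 and 3.93 ± 0.51. A list of 27 genes of the intracellular pathogen response, 17 of them pals genes and so not a separate result, had 22 higher and none lower. It also held eol-1, related to the RNA-processing enzyme DXO, which was at 12.9, 18.9 and 12.5 CPM at day 9 against 0.885, 0.840 and 2.12 CPM at day 1 (3.46 ± 0.46, adjusted p = 6.19e-05). The number of pals genes higher was 20 to 23 when single libraries were left out, and 16 with a filter of at least 50 counts in 3 libraries. That none was lower did not hold in every fit. DESeq2 called 1 lower and the fit of the 6 wild-type libraries 2. Without a filter, and without day 1 replicate 1, 1 was lower. The summed level of the class was 117.6 to 142.6 CPM at day 9 and 76.5 to 103.9 CPM at day 1, so the sum rose by less than the median gene.

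Sperm genes of the spe class had 19 of 25 members tested higher and 1 lower, with a median of 2.14. The gene spe-41, for a calcium channel of sperm, was at 47.6, 44 and 40.1 CPM at day 9, against 7.76, 9.36 and 9.84 CPM at day 1, a change of 2.28 ± 0.16 (adjusted p = 7.75e-07). For spe-11, which sperm bring to the egg, the day 9 libraries were at 12, 12.2 and 5.82 CPM, against 1.04, 1.2 and 0.957 CPM at day 1. Day 9 replicate 3, low in sperm genes, was the lowest at day 9 for both, and neither gene's libraries overlapped. Without that library 20 were higher, and without other single libraries 14 to 17. The member that fell, spe-39, works in vesicle traffic in many cells (-0.57 ± 0.14, adjusted p = 0.00357). The gene fog-1, which directs germ cells to become sperm, was at 93.4, 85.2 and 72.2 CPM at day 9, against 20.6, 20.9 and 22.2 CPM at day 1 (1.98 ± 0.14, adjusted p = 9.90e-07). The msp genes for the major sperm protein had 0 of 27 called in either direction by edgeR or by DESeq2, with 2 higher at an unadjusted p under 0.05 and a median of 1.04. The msp genes are near-identical copies, and their levels in day 9 replicate 3 were low as well. Genes of male-specific neurons had 7 of 12 tested higher and 1 lower, or 6 to 7 higher and 0 to 1 lower without single libraries. The 6 male markers summed to 5.01, 4.63 and 2.64 CPM at day 9, against 1.82, 1.32 and 1.57 CPM at day 1. The part of males in the sperm counts, or in the cilia counts below, was not tested.

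F-box proteins choose substrates for ubiquitin ligases, and the 2 large F-box classes went opposite ways. Of 130 fbxa genes tested, 64 rose and 9 fell (median 0.59). Of 94 fbxb genes tested, 1 rose and 59 fell (median -1.55). Most were low in level. The gene fbxa-24 was at 6.12, 6.63 and 4.40 CPM at day 9, against 0.573, 0.60 and 0.479 CPM at day 1. In the other class fbxb-67 was at 1.11, 0.575 and 1.26 CPM at day 9, against 3.91, 4.80 and 5.09 CPM at day 1. The fbxb class rested on uneven day 1 libraries: its summed level was 84.9 to 102 CPM at day 9, against 300, 104 and 228 CPM at day 1, with replicate 2 the low one. Leaving out day 1 replicate 1 gave 38 that fell and 3 that rose, leaving out day 1 replicate 2 gave 71 that fell, and leaving out any other library gave 40 to 44. The part of those library differences in the fbxb result was not tested.

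Transthyretin-like genes had 27 of 48 members tested higher and 3 lower (median 0.85). The gene ttr-54 was at 42.4, 56.3 and 45.3 CPM at day 9, against 7.76, 8.88 and 8.92 CPM at day 1 (2.49 ± 0.14, adjusted p = 1.77e-07), with no overlap. Against the family's direction, ttr-50 was among those that fell (-2.09 ± 0.39, adjusted p = 0.000724). Of 24 saposin-like genes tested, 13 rose and 2 fell, with spp-2 at 255, 280 and 282 CPM at day 9 against 11.8, 8.64 and 12 CPM at day 1, and spp-17 at 14.3, 14.1 and 8.17 CPM at day 9 against 145, 123 and 157 CPM at day 1.

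Some signalling, receptor and transporter classes were among the 15 with the largest share higher, while the solute carriers (slc) were not, with 7 of 31 higher and 15 lower. Of 15 genes tested for alpha subunits of G proteins (gpa), which relay chemosensory signals, 9 rose and none fell. Among them, gpa-4 was at 14.7, 19 and 19.5 CPM at day 9 against 2.86, 1.56 and 2.91 CPM at day 1 (2.85 ± 0.32, adjusted p = 2.09e-05). The irld genes, which share the ligand-binding L domain of the insulin and epidermal growth factor receptors, had 11 of 16 members tested higher and 2 lower, while 40 further members were too low to test. P-glycoproteins, exporters of drugs and lipids, had 8 of 14 higher and 3 lower, with pgp-7 among those that rose (3.36 ± 0.38, adjusted p = 2.02e-05). Patched-related genes had 12 of 23 higher and 1 lower, with ptr-22 at 12.4, 10.4 and 10.6 CPM at day 9 against 0.885, 0.240 and 0.581 CPM at day 1. The tbc class of Rab GTPase regulators had 9 of 17 higher, but 5 without day 1 replicate 2, and also without day 9 replicate 1 or 3.

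Globins showed how a count and a sum can differ. Of 29 globin genes tested 17 rose and 1 fell, yet the summed level of the class was 54.6 to 60.5 CPM at day 9 and 68.5 to 79.3 CPM at day 1. The one that fell, glb-1, held most of the class's reads at day 1: it was at 17.9, 19.6 and 19.98 CPM at day 9, against 57.5, 51 and 49.6 CPM at day 1 (-1.46 ± 0.09, adjusted p = 3.20e-07). The ones that rose were low, such as glb-7 at 1.81, 1.72 and 1.76 CPM at day 9, against 0.104, 0.240 and 0.444 CPM at day 1. A stricter filter of at least 50 counts in 3 libraries takes low genes out of testing, and 5 globin genes were called higher with it. The same filter left 4 of the irld genes and 3 of the gpa genes higher.

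The nuclear receptor class (nhr), ligand-gated transcription factors expanded in nematodes, had 78 of 192 members tested higher and 14 lower. The class was named for its share after the values were seen. Against its direction, nhr-114, active in the intestine and germ line, was at 4.68, 5.32 and 5.91 CPM at day 9 against 31.7, 19.6 and 17.8 CPM at day 1.

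On the falling side the eif class had the largest share lower. Of 25 eif genes for translation initiation factors, 24 fell and none rose, with a median of -0.81. The gene eif-3.H was at 77.8, 79.98 and 67.4 CPM at day 9, against 177, 206 and 174 CPM at day 1 (-1.31 ± 0.11, adjusted p = 2.22e-06). Of 32 aminoacyl-tRNA synthetases, which charge tRNAs with amino acids, 30 fell and none rose. Their median was -0.84, and gars-1, which charges glycine tRNA, was at 104, 108 and 107 CPM at day 9, against 261, 277 and 207 CPM at day 1 (adjusted p = 3.10e-06). The wider list for translation initiation and elongation, which shares eif genes with that class, had 28 of 42 lower and 2 higher. Both ribosome types of the cell were touched: 35 of 40 mrpl and 25 of 29 mrps genes of the mitochondrial ribosome fell, beside 23 of 31 rps and 29 of 47 rpl genes of the cytosolic one. The exception was mrpl-18, which rose by 0.50 ± 0.08 (adjusted p = 0.00035). Cytosolic ribosomal counts leaned on the scaling, with 16 rps and 18 rpl genes lower under upper-quartile scaling, and 18 and 19 rpl genes were lower without day 1 replicate 2 or day 9 replicate 3.

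Subunits of the proton pump of acidic organelles fell together. Of 20 vha genes, subunits of the vacuolar ATPase, 18 fell and none rose, and the same numbers came from every fit that left out a library. The proteolipid gene vha-3 (IV, 2315460 to 2315945) was at 35.6, 32.2 and 37.8 CPM at day 9, against 98.7, 104 and 93 CPM at day 1 (-1.49 ± 0.09, adjusted p = 3.59e-07), with libraries close together at each age. The intestinal subunit gene vha-6 was at 87.2, 76.8 and 96 CPM at day 9, against 404, 463 and 296 CPM at day 1.

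Other machines that fell were cytochrome c oxidase and its assembly factors (cox, 12 of 14), the lid and base of the proteasome cap (rpn, 11 of 13), RNA-binding proteins of the rbm class (11 of 13), pre-mRNA processing factors (prp, 10 of 13), the Integrator complex (ints, 8 of 11) and nuclear pore proteins (npp, 18 of 26). One npp gene rose, npp-26 (1.05 ± 0.41, adjusted p = 0.0425), but it was not called when any library except day 1 replicate 1 was left out. Upper-quartile scaling lowered the counts of rbm, prp and npp genes that fell to 7, 6 and 10. The splicing and decay list of 70 genes had 1 higher and 45 lower, and 27 lower under that scaling; snr-2, a core protein of splicing particles, was at 130, 126 and 118.8 CPM at day 9 against 312, 364 and 305 CPM at day 1.

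In 34 of the 143 classes over 20% of the members rose and over 20% fell, as was so of all genes tested (31.2% and 25.6%), so the values below are of single members. Heat shock proteins were one such class, with 7 of 21 higher, or 4 without day 1 replicate 3, and 8 lower. The inducible gene hsp-70 was at 6.32, 8.77 and 7.88 CPM at day 9, against 1.77, 0.480 and 0.991 CPM at day 1 (2.81 ± 0.38, adjusted p = 6.83e-05). The mitochondrial chaperonin gene hsp-60 went the other way, at 83.7, 57.8 and 65.4 CPM at day 9 against 491, 570 and 306 CPM at day 1 (-2.72 ± 0.22, adjusted p = 2.26e-06), and so did hsp-6 and hsp-110. Libraries of the ages did not overlap for these genes.

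Enzyme classes also held members that moved far in opposite directions. Among aspartic proteases (asp) 3 of 13 rose and 7 fell: asp-17 was at 49.1, 66.5 and 51.4 CPM at day 9 against 1.93, 3.36 and 5.57 CPM at day 1, and asp-14 at 7.72, 10.2 and 26.4 CPM at day 9 against 425, 576 and 431 CPM at day 1. Acid phosphatases (pho) had 7 of 12 higher and 3 lower, where pho-14 rose by 1.63 ± 0.12 and the intestinal pho-1 fell by 5.34, both on the log2 scale (adjusted p = 1.07e-06 and 8.57e-06). Cytochrome P450 genes (cyp), with 21 of 62 higher and 16 lower, and C-type lectins (clec), with 42 of 118 higher and 28 lower, were near the shares of all genes. UDP-glucuronosyltransferases (ugt) had 15 of 63 higher and 23 lower.

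Acyl-CoA dehydrogenases (acdh) had 5 of 13 higher, or 3 without day 9 replicate 2, and 6 lower. The gene acdh-1, a marker of the propionate shunt that worms use when vitamin B12 is scarce, was at 66.2, 84.1 and 80.1 CPM at day 9, against 1431, 931 and 898 CPM at day 1 (-3.82 ± 0.56, adjusted p = 0.000138). All day 9 libraries were below the lowest day 1 library by more than a factor of 10. It belongs to a list for breakdown of amino acids and propionate in which 3 of 56 genes tested rose and 40 fell, among them ech-6 (-2.13 ± 0.13) and alh-9 (-2.14 ± 0.16; adjusted p = 3.20e-07 and 1.05e-06).

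**Figure D5:**
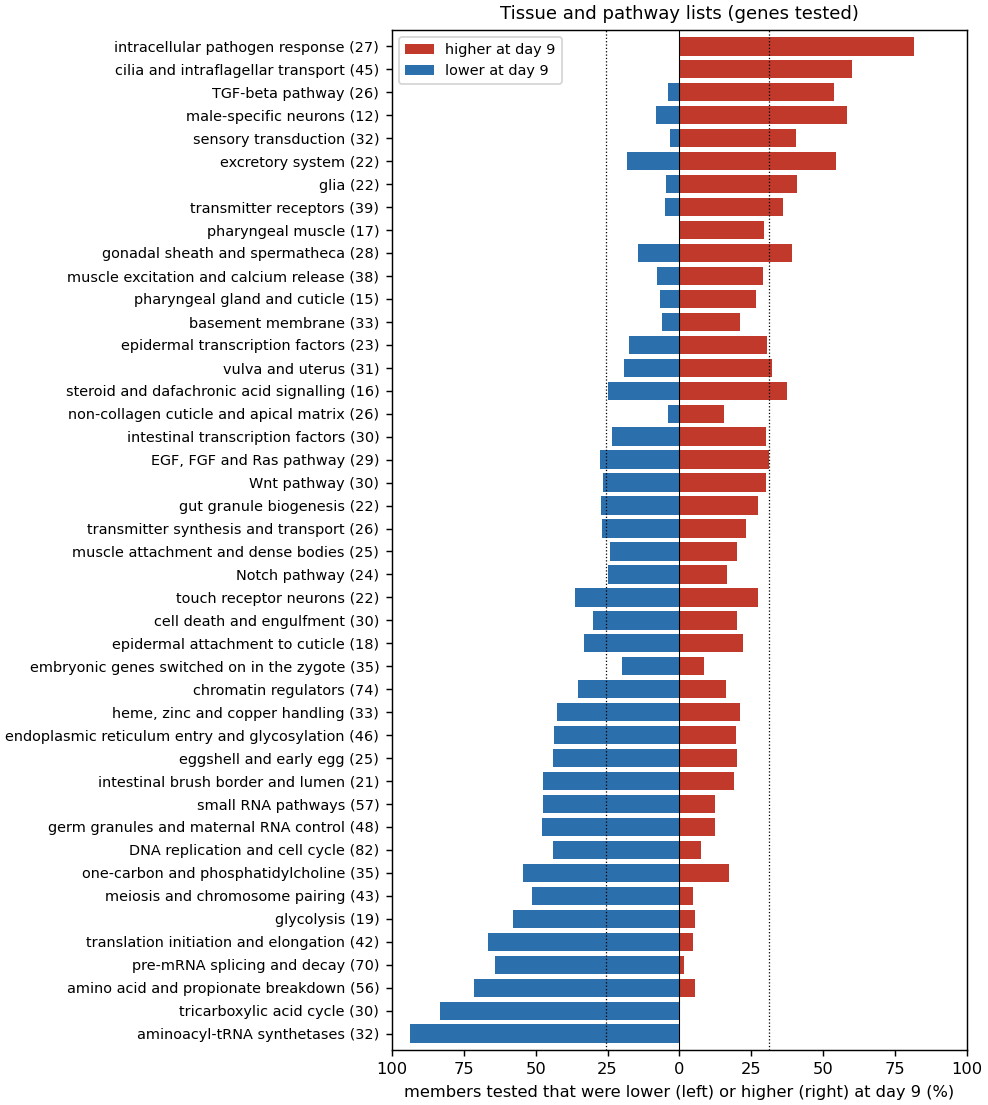
Share of the members tested that were higher (red, right) or lower (blue, left) at day 9 in 44 tissue and pathway lists, in percent, ordered by the difference between the 2 shares, with the number tested in brackets; dotted lines mark 31.2% and 25.6%, the shares of all genes tested. The intracellular pathogen response (22 of 27 higher) and cilia (27 of 45 higher) lie at one end, the tricarboxylic acid cycle (25 of 30 lower) and the aminoacyl-tRNA synthetases (30 of 32 lower) at the other.

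In lists of central metabolism more genes fell than rose under both scalings. Of 30 genes of the tricarboxylic acid cycle and pyruvate dehydrogenase 25 fell and none rose (median -0.61), of 19 glycolysis genes 11 fell and 1 rose, and of 35 genes of one-carbon and phosphatidylcholine metabolism 19 fell and 6 rose. The gene pdhb-1, for a subunit of pyruvate dehydrogenase, was at 57.4, 57.6 and 58.1 CPM at day 9, against 183, 223 and 174 CPM at day 1. Its day 9 libraries differed by less than 1 CPM. In the one-carbon list pmt-2, a methyltransferase that makes phosphocholine, fell by 2.43 on the log2 scale, and cbs-2, a cystathionine beta-synthase, rose by 3.04 ± 0.36 (adjusted p = 2.23e-06 and 2.77e-05).

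Of 45 genes tested for cilia and intraflagellar transport, the traffic that builds cilia, 27 rose and none fell, with a median change of 1.3. In worms only sensory neurons carry cilia. The regulator of the ciliary genes, daf-19 (II, 10157520 to 10169346), was at 32, 35.4 and 32.8 CPM at day 9, against 13.9, 11.9 and 14.7 CPM at day 1 (1.31 ± 0.14, adjusted p = 1.33e-05). The transport genes osm-6 and dyf-3 rose by 2.76 ± 0.29 and 2.02 ± 0.21, osm-6 at 2.05, 2.53 and 2.39 CPM at day 9 against 0.417, 0.30 and 0.308 CPM at day 1. These genes were low at both ages, and 18 were higher under the stricter count filter and 23 to 29 without single libraries.

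Other nervous system lists pointed less evenly. Sensory transduction genes had 13 of 32 higher and 1 lower. The receptor guanylate cyclase gene gcy-23, of the thermosensory neurons, was at 7.84, 5.90 and 5.87 CPM at day 9 against 1.04, 0.36 and 1.26 CPM at day 1. That count fell to 7 without day 9 replicate 1, to 8 without day 1 replicate 2 and to 5 under the stricter filter. Transmitter receptors had 14 of 39 higher (35.9%, against 31.2% of all genes) and 2 lower (5.13%, against 25.6%), or 0 to 2 lower without single libraries. Among those that rose was the glutamate receptor gene mgl-3. It was at 4.76, 5.55 and 5.15 CPM at day 9 against 0.625, 0.60 and 0.615 CPM at day 1. Genes for making and moving transmitters had 6 of 26 higher, or 3 without day 1 replicate 2 or 3 or day 9 replicate 3, and 7 lower, against 8 higher and 4 lower under upper-quartile scaling: the serotonin transporter gene mod-5 rose by 2.24 ± 0.23, and bas-1, the decarboxylase that makes serotonin and dopamine, fell (-1.2 ± 0.16, adjusted p = 1.04e-05 and 5.95e-05). Touch receptor genes had 6 of 22 higher and 8 lower, or 7 higher and 6 lower under that scaling. The neuron markers summed to more at day 9, mostly through snb-1 as given above, and their part in these lists was not tested.

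Glia and the excretory system rose more often than they fell. The glia list had 9 of 22 higher and 1 lower, with acd-1, switched on by the measure above, among those that rose. The immunoglobulin-domain gene igdb-2 was at 78.4, 71 and 87.3 CPM at day 9, against 36, 33.5 and 35.7 CPM at day 1. The excretory list, for the cells that handle salt and water, had 12 of 22 higher and 4 lower. Its anion transporter gene sulp-8 was at 32.3, 34.1 and 40.7 CPM at day 9, against 7.13, 3.78 and 5.74 CPM at day 1 (2.68 ± 0.23, adjusted p = 3.12e-06). Without day 1 replicate 2 the count of excretory genes higher was 8.

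Genes of the intestine's absorptive surface fell more often than they rose, while its regulators were mixed. Of 21 brush border and lumen genes 10 fell and 4 rose, or 2 when any library except day 1 replicate 1 was left out. The gene act-5, for the actin of the microvilli, was at 113, 118 and 108 CPM at day 9, against 639, 798 and 558 CPM at day 1 (-2.56 ± 0.29, adjusted p = 2.21e-05), and ifc-1, given above, was switched off. One that rose, the spectrin gene sma-1, had a day 1 spread of 157, 26.6 and 124 CPM, against 292, 245 and 274 CPM at day 9, with replicate 2 the low library. Of 30 intestinal transcription factors 9 rose and 7 fell, or 15 and 5 under upper-quartile scaling. Among those that rose was hlh-30, the worm's TFEB and a regulator of autophagy, at 98.7, 82.3 and 111 CPM at day 9 against 52.1, 53.4 and 47.1 CPM at day 1. The mitochondrial stress regulator atfs-1 fell to 44.2, 40.2 and 42.6 CPM at day 9, against 82.5, 82.9 and 67 CPM at day 1. The master regulator elt-2 was not called (0.02 ± 0.16, adjusted p = 0.931).

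Muscle lists gave no common direction. Genes of excitation and calcium release had 11 of 38 higher, a share near that of all genes, or 17 under upper-quartile scaling, and 3 lower, or 5 lower without day 1 replicate 3, yet csq-1, the calcium buffer of the sarcoplasmic reticulum, fell to 15.9, 18.3 and 15.3 CPM at day 9, against 98.9, 108 and 84.4 CPM at day 1. Attachment and dense body genes had 5 of 25 higher, or 2 without day 1 replicate 3 and 3 without day 1 replicate 2 or day 9 replicate 1 or 3, and 6 lower, against 6 higher and 4 lower under upper-quartile scaling. All 8 body wall muscle markers were called lower, though myo-3, a body wall myosin, was no longer called under upper-quartile scaling (adjusted p = 0.0836), with the stricter filter, or without day 1 replicate 1 or 3 or day 9 replicate 1 or 2. Of 17 pharyngeal muscle genes 5 rose and none fell, while DESeq2 and the fit of 6 libraries called 2 lower, and 1 was lower without day 1 replicate 2.

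Among germ line lists, germ granule and maternal RNA genes had 6 of 48 higher and 23 lower. The gene car-1, whose product coats granules of stored RNA, was at 274, 218 and 269 CPM at day 9 against 1600, 2124 and 1390 CPM at day 1 (-2.75 ± 0.22, adjusted p = 1.75e-06). Its partners cgh-1, an RNA helicase, and ifet-1, a translational repressor, fell by 1.84 and 1.75 on the log2 scale. Meiosis genes had 2 of 43 higher and 22 lower, and DNA replication and cell cycle genes 6 of 82 higher and 36 lower. Without single libraries, 0 to 3 and 2 to 5 of the genes in those lists rose. Upper-quartile scaling brought the replication and cell cycle list to 19 higher and 24 lower, and the meiosis list to 3 higher and 15 lower. The inhibitor of division cki-1 was among those that rose, at 12.2, 13.8 and 13.7 CPM at day 9 against 5.62, 5.70 and 5.81 CPM at day 1. Of the small RNA pathways, 7 of 57 genes rose and 27 fell, or 12 and 22 under upper-quartile scaling: the RNA-dependent RNA polymerase gene rrf-2 was at 75, 76.3 and 72.2 CPM at day 9 against 14.1, 5.76 and 11.8 CPM at day 1, and pash-1, which with Drosha cuts microRNA precursors, was at 34.2, 30.3 and 29.95 CPM at day 9 against 80.1, 87.1 and 88.0 CPM at day 1.

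Genes of the egg and its passage were divided. Of 25 eggshell and early egg genes 5 rose and 11 fell under TMM, and 6 rose and 6 fell under upper-quartile scaling. The chitin synthase gene chs-1, which lays down the shell's chitin, was at 173, 151 and 190 CPM at day 9, against 397, 447 and 404 CPM at day 1 (-1.28 ± 0.18, adjusted p = 0.000106), while the chondroitin proteoglycan gene cpg-7 was at 21.3, 18.8 and 24 CPM at day 9, against 6.61, 5.16 and 5.23 CPM at day 1 (1.92 ± 0.18, adjusted p = 5.89e-06). The number that fell was 6 or 7 without day 1 replicate 2 or 3 or day 9 replicate 1 or 2. In the list for vulva and uterus 10 of 31 genes rose (32.3%) and 6 fell (19.4%), near the shares of all genes (31.2% and 25.6%). Its member pvf-1, a relative of vertebrate vascular growth factors, was at 56.3, 56 and 54.9 CPM at day 9, against 9.95, 10.4 and 10.5 CPM at day 1. The libraries of pvf-1 nearly coincided within each age. In the gonadal sheath and spermatheca list 11 of 28 rose and 4 fell, and 7 rose without day 1 replicate 2 or day 9 replicate 3. Embryonic genes switched on in the zygote were low, with 3 of 35 higher and 7 lower. Among these pes-10, an early embryonic transcript, was at 0.246, 0.268 and 0.209 CPM at day 9, against 2.92, 1.92 and 4.41 CPM at day 1, and 12 fell without day 1 replicate 2.

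In the epidermis, lists other than collagens gave mixed counts. Genes for attachment to the cuticle had 4 of 18 higher and 6 lower, epidermal transcription factors 7 of 23 higher and 4 lower, and cuticle and apical matrix genes other than collagens 4 of 26 higher and 1 lower. The zona pellucida domain gene cutl-23 was at 11.9, 13.6 and 11.8 CPM at day 9, against 1.51, 2.04 and 2.05 CPM at day 1. Without single libraries the matrix genes had 2 to 7 higher and 1 to 4 lower, the most higher without day 1 replicate 1, and 2 epidermal transcription factors fell without day 9 replicate 2. Basement membrane genes had 7 of 33 higher, or 11 without day 1 replicate 1, and 2 lower. Those that fell were nid-1, for nidogen, at 42.7, 37.4 and 41.6 CPM at day 9 against 123, 100 and 86 CPM at day 1, and unc-52, for perlecan, which anchors muscle (-1.49 ± 0.35, adjusted p = 0.00339).

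Several organelle lists had no direction that held under both scalings. Genes for entry into the endoplasmic reticulum and glycosylation had 9 of 46 higher and 20 lower under TMM, and 14 each way under upper-quartile scaling. The translocon gene sec-61.A was at 358, 306 and 355 CPM at day 9, against 893, 1023 and 640 CPM at day 1, and crt-1, for the calcium-binding chaperone calreticulin, rose by 0.80 ± 0.15 (adjusted p = 5.02e-05 and 0.000714). Gut granules, the lysosome-related organelles of the intestine, had 6 of 22 genes higher and 6 lower, or 8 higher and 4 lower under upper-quartile scaling, with the trafficking gene vps-41 at 54.3, 50.4 and 60.3 CPM at day 9 against 20.5, 24.6 and 22.8 CPM at day 1. Genes handling heme, zinc and copper had 7 of 33 higher, or 4 without replicate 3 of either age, and 14 lower, against 10 each way under upper-quartile scaling. Of these cdr-1, a gene induced by cadmium, was at 0.205, 0.575 and 0.503 CPM at day 9, against 6.09, 7.32 and 4.48 CPM at day 1. Cell death and engulfment genes had 6 of 30 higher and 9 lower, or 5 lower without day 9 replicate 2, and upper-quartile scaling turned the balance to 10 higher and 3 lower. The nuclease gene crn-2 rose by 1.64 ± 0.15 and wah-1, the worm's apoptosis-inducing factor, changed by -0.95 ± 0.12 (adjusted p = 5.46e-06 and 4.22e-05).

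Chromatin regulators had 12 of 74 higher and 26 lower, and the balance turned to 17 higher and 14 lower under upper-quartile scaling. Under TMM 17 were lower without day 9 replicate 2, and 7 were higher without day 9 replicate 3. Members of a single complex could differ: of the Polycomb partners, mes-3 was at 152, 146 and 152 CPM at day 9 against 84, 83.4 and 83.8 CPM at day 1, and mes-6 was at 43, 37.1 and 41.1 CPM at day 9 against 70.9, 79 and 59.2 CPM at day 1. Neither gene's libraries overlapped. In the steroid list 6 of 16 genes rose and 4 fell. The cholesterol trafficking genes ncr-1 and ncr-2, counterparts of human NPC1, rose by 1.39 ± 0.17 and 2.38 ± 0.30, and daf-36, the oxygenase that starts dafachronic acid synthesis, changed by -1.31 ± 0.36 (adjusted p = 3.20e-05, 4.30e-05 and 0.00789).

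The TGF-beta pathway, which sets body size and dauer entry, had 14 of 26 genes higher and 1 lower. The gene crm-1, an extracellular regulator of its ligands, was at 81.5, 88.6 and 84.0 CPM at day 9, against 24.7, 21.5 and 26.5 CPM at day 1 (1.80 ± 0.14, adjusted p = 1.24e-06), and the Smad gene sma-3 and the ligand gene tig-2 rose by 1.04 ± 0.17 and 0.98 ± 0.16 (adjusted p = 0.00028 and 0.000299). Wnt genes had 9 of 30 higher and 8 lower, near the shares of all genes, or 13 higher and 5 lower under upper-quartile scaling, with the beta-catenin gene bar-1 and the Axin gene pry-1 among those that rose (1.31 ± 0.17 and 1.52 ± 0.17) and the Frizzled receptor gene mig-1 among those that fell (-1.23 ± 0.19). Notch genes had 4 of 24 higher and 6 lower, or 7 higher and 5 lower under that scaling, and genes of the epidermal and fibroblast growth factor and Ras pathways had 9 of 29 higher and 8 lower, also near the shares of all genes. Within the last, the receptor genes egl-15 and let-23 rose by 1.63 ± 0.21 and 1.24 ± 0.18, and the kinase genes mpk-1 and lin-45 fell by 0.85 and 0.73 on the log2 scale.

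By chromosome, the share of genes tested that rose was 34.7% on V, 34.2% on IV, 29.8% on I, 29.6% on X, 29.3% on III and 28.9% on II. The share that fell was 30.2% on III and 18.4% on X. On the mitochondrial genome 12 of 14 genes tested fell and 1 rose. Pseudogenes had 37.3% of 579 higher and 12.8% lower, and long intergenic RNAs 13 of 38 higher and 2 lower.

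Some neighbouring genes shared a direction. There were 69 runs of at least 5 neighbouring protein-coding genes tested that all rose and 38 that all fell, with 408 and 211 of the 14771 protein-coding genes tested, and how many runs chance would give was not tested. The longest run of all was of 12 mitochondrial genes that fell. The longest on a nuclear chromosome held 10 genes that rose: from cdc-50.B to grsp-2 (IV, 8764867 to 8818512) and from pals-29 to talp-3 (IV, 14539685 to 14653380), the second with pals-30, irld-18, irld-4, dmd-6 and ule-2. A run of 8 on V (3968134 to 3989770) took in cyp-34A9, cyp-34A10 and the antimicrobial peptide genes nlp-27, nlp-28, nlp-29, nlp-30, nlp-31 and nlp-34, which the epidermis makes on infection and wounding. In it nlp-34 was at 34.8, 49.5 and 38.3 CPM at day 9 against 1.2, 0.660 and 0.889 CPM at day 1 (5.47 ± 0.47, adjusted p = 2.84e-06), and nlp-27 at 138, 177 and 174 CPM at day 9 against 92.5, 80.4 and 69.5 CPM at day 1. The longest run of falling nuclear genes, 8 on V from 2322038 to 2352932, held the pud cluster with irld-35 and clec-209. Runs of paralogs can share reads where copies are similar.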

How the data were processed

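RNA was sequenced from whole worms with an unstranded TruSeq kit, per the labels' protocols, so reads of a gene and of one overlapping it on the other strand are mixed. What the authors deposited is a whole-number count for each gene. The build WBcel235 and the tools RSEM 1.3.1, STAR 2.7.0e and DESeq2 1.22.2 stand in the submitters' processing notes, which give no roles. The sources used here do not say how reads matching several genes were divided, and 62 genes tested had the same counts as another gene in all 12 libraries. Of the 46778 identifiers 46603 were in the Ensembl WBcel235 annotation.

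The test was edgeR 4.0.16 (R 4.3.3) quasi-likelihood on the counts, with TMM scaling, the package's own filter at a minimum count of 10, and a single model with the 4 group means of all 12 libraries. It was also run on simulated counts with few genes changed. That cannot show how the scaling behaves where 56.8% of genes are called. The SE is the change divided by the square root of F. TPM used union exon lengths. Replicate pairs differed by more than sampling noise and were kept apart. Fitted within an age, the biological coefficient of variation was 0.152 at day 9 and 0.231 at day 1. P-values weigh each change against a spread estimated jointly over the 4 groups of all 12 libraries, not over the wild-type libraries alone. For a count of 0 the limit used was 3 counts, which covers counting error alone.

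Gene lists, classes and the rule for named genes were chosen with earlier results of these data known: the 10 leading genes by TPM, 5 rank movers each way, the highest switched genes, and up to 3 called members with the smallest p in each direction per class or list described. Lists carry counts and medians, with no set test. Alternatives were upper-quartile scaling, DESeq2 1.42.0, no and a stricter filter, the 6 wild-type libraries alone, a replicate block, each replicate left out, other switch limits, unscaled totals, and CPM or all biotypes in place of TPM. No sequences were used.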

Additional observations from a re-analysis of the deposited data

How the results depend on the processing

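The numbers of genes higher and lower kept within 1.5 times of 4848 and 3970 under every alternative: 4676 and 4282 with DESeq2, 4420 and 4102 with the 6 wild-type libraries alone, 4858 and 3910 without a filter, 4055 and 3476 with the stricter one, and 5849 and 2967 with upper-quartile scaling. Leaving out 1 library gave 4060 to 4683 higher and 3329 to 3775 lower. Same-numbered libraries of the 2 ages did not deviate together (correlations of 0.008, -0.085 and -0.178). With so few libraries at each age, these values cannot show whether the numbers pair them. A replicate block gave 4870 and 4003. Without single libraries 23 to 30 genes were switched on, 11 to 13 were switched off, the top 100 shared 75 to 77 genes and the change in its share was -3.65 to -2.28 percentage points. On unscaled totals 6 genes were switched off; with CPM in place of TPM the share of the top 100 changed by -5.93 points, against -3.17, since length then adds to a gene's share. Of 7815 alternative values of named genes 7625 kept direction and side of the threshold, 167 were no longer called, 10 became called and 13 changed sign, all for genes not called. These were elt-2 (-0.0251 with DESeq2, -0.0143 with 6 libraries, -0.0792 to 0.0817 without single libraries), end-1 (-0.760 to 0.535 without single libraries), far-2 (0.0115 with upper-quartile scaling), rla-0 (-0.0445 to 0.208 without single libraries) and mlt-10 (-0.0280 with DESeq2, -0.0345 with 6 libraries, -0.00425 without a filter, -0.337 to 0.447 without single libraries). Of 2544 alternative counts for classes and lists, 191 moved by over 1.5 times, 31 of them with 10 or more genes; the causes were not tested. Depth limits the low genes: with the stricter filter 5 globin, 4 irld, 3 gpa and 18 ciliary genes were higher, against 17, 11, 9 and 27. The planned comparison of promoter motifs was not run.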
